A study of Homo sapiens with 6 samples.

Results

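Cells take up, store and release iron through a small set of genes, and 10 of them were examined in OCI-AML5 cells exposed to the compound S767. They were taken by symbol. *TFRC*, *SLC11A2* and *STEAP3* bring iron into the cell, *SLC40A1* exports it, *FTH1* and *FTL* store it, and *NCOA4* returns it from storage. *ACO1* and *IREB2* encode the iron regulatory proteins (IRPs), and *FBXL5* controls one of them. All 10 symbols were found among the 60609 genes listed for each library, and all 10 passed the limit on low counts that left 20725 genes to test.

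The cells were of the OCI-AML5 line, derived from human acute myeloid leukemia and kept in aMEM with heat-inactivated serum and GM-CSF. Stranded, polyA-selected libraries were made from 3 samples exposed to the solvent DMSO and 3 samples exposed to 1 μM S767, all for 24 hours. No other treatment, genotype or cell line was compared, so the results describe a single line at 1 dose and 1 time. The libraries held between 149994700 and 258029564 fragments counted on genes. Of 8 myeloid and blood markers, 7 were above 1 CPM (counts scaled to the size of the library) in all 6 libraries. *CSF2RA* was listed at 0, and whether its mRNA was absent or its reads were not assigned to the gene was not tested. The 8 markers had a summed level of 1150 to 1560 CPM with DMSO and 1150 to 1540 CPM with S767. Within that sum, in edgeR's quasi-likelihood test with the replicate number as a block, *CD33* had a log2 fold change of 0.11 (adjusted p = 0.0241), *CEBPA* one of -0.07 (adjusted p = 0.121) and *MPO* one of -0.07 (adjusted p = 0.234), all 3 named after their values were seen, and their part in the results was not tested. None of 5 erythroid markers passed 1 CPM, and their sum was at most 0.0673 CPM. In RNA from whole cultures, fewer cells of a kind and less RNA per cell cannot be told apart, and p-values measure only the spread between these samples.

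Iron enters most cells bound to transferrin, which the transferrin receptor carries into endosomes, where iron is reduced and pumped into the cytosol. When iron is scarce, IRPs bind hairpins called iron-responsive elements (IREs) in certain mRNAs. Binding to an IRE in the 3′ untranslated region (UTR) protects an mRNA from decay, while binding to an IRE in the 5′ UTR blocks its translation. The abundance of the mRNA can therefore reflect the first kind of control, without measuring it, and reflects the second kind poorly. Neither mRNA decay nor IRP binding was measured here. *TFRC* and *SLC11A2* carry 3′ IREs, and *FTH1*, *FTL* and *SLC40A1* carry 5′ IREs.

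Matches to the IRE hairpin are shown because the comparison of 3′ and 5′ genes rests on this element. GENCODE 29 coding transcripts on GRCh38 were searched on the transcript strand for a bulged C followed by any 5 bases, the loop letters CAGTG and any 6 bases, in which the 5 bases on either side of the 6-base loop can pair (G with T allowed). Capitals mark the bulged C and the loop. A hairpin with other loop letters would not be found, so the number and order given are those of the matches alone.
TFRC, first from the 5′ end: attatCggaagCAGTGCcttccataatta
TFRC, the second: attatCgggagCAGTGTcttccataatgt
TFRC, the third: tgtatCggagaCAGTGAtctccatatgtt
TFRC, the fourth: attatCgggaaCAGTGTttcccataattt
SLC11A2: gccatCagagcCAGTGTgtttctatggtt
FTH1: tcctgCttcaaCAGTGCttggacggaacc
FTL: tcttgCttcaaCAGTGTttggacggaaca
SLC40A1: aacttCagctaCAGTGTtagctaagtttg

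The 4 *TFRC* matches lie in the 3′ UTR on the minus strand, at chr3:196050978-196051006, chr3:196050574-196050602, chr3:196050509-196050537 and chr3:196050462-196050490. They occur in 3 of the gene's 4 coding transcripts, and *TFRC* was the only gene of 19110 with 4 or more matches in a 3′ UTR. The *SLC11A2* match (chr12:50988268-50988296, minus strand, 3′ UTR) pairs at 4 of 5 positions and occurs in 5 of 18 coding transcripts. A value summed over the gene can therefore mix *SLC11A2* transcripts with and without it. The same holds for *TFRC*, *FTH1* and *SLC40A1*, whose matches are also missing from some coding transcripts. The 5′ UTR matches lie at chr11:61967573-61967601 (minus strand) in 7 of 8 *FTH1* transcripts, at chr19:48965336-48965364 (plus strand) in the 1 *FTL* transcript, and at chr2:189580660-189580688 (minus strand) in 1 of 5 *SLC40A1* transcripts. With all 5 pairs required, a match was found in the 5′ UTR of 0.191% of 18816 genes and in the 3′ UTR of 0.691% of 19110 genes. With at least 4 pairs the shares were 1.55% and 4.75%. *ACO1* and *IREB2* had a match with 4 pairs in the 3′ UTR, and *STEAP3*, *NCOA4* and *FBXL5* had none. A match describes the letters of a transcript and is not evidence that an IRP binds it.

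The levels of the 10 mRNAs spanned more than 3 orders of magnitude, as compared in TPM, a transcript abundance that corrects for length. With DMSO, *FTL*, the ferritin light chain, was highest at 2607 ± 614 TPM (SD, n = 3), which was 1363-fold above *SLC40A1*, the iron exporter ferroportin, at 1.91 ± 0.31 TPM. *FTH1*, the ferritin heavy chain, followed *FTL* at 321.4 ± 19.6 TPM. Next came *NCOA4*, the receptor that delivers ferritin for degradation, at 181.0 ± 10.3 TPM, and *TFRC*, the transferrin receptor, at 153.7 ± 19.2 TPM. *IREB2* stood at 44.7 ± 0.68 TPM. *FBXL5* (25.6 ± 1.8 TPM) and *STEAP3* (24.5 ± 0.56 TPM) overlapped between DMSO libraries, and they were the only neighbours in this order that did. *SLC11A2* (14.5 ± 0.59 TPM) and *ACO1* (11.2 ± 0.69 TPM) came before *SLC40A1*. With S767, *TFRC* reached 243.6 ± 19.3 TPM and stood above *NCOA4*, which was at 178.7 ± 18.6 TPM, with no overlap between the libraries.

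**Figure D1:**
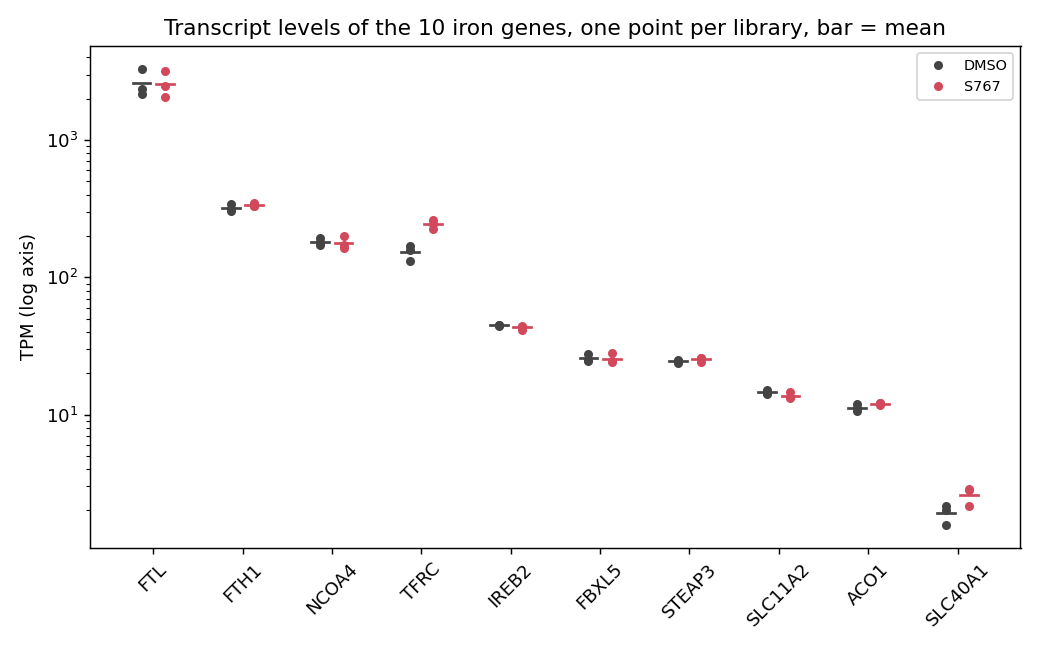
Transcript level of each gene in TPM on a log axis, with 1 point per library and a bar at the group mean (grey, DMSO; red, S767; 3 libraries each). The genes run from *FTL* near 2607 TPM to *SLC40A1* near 1.91 TPM, and *TFRC* shows the clearest gap between treatments.

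Of the 10 genes, *TFRC* differed most between treatments, with 1.66-fold more mRNA after S767. *SLC40A1* was 1.38-fold higher and *ACO1* 1.09-fold higher in the fit that pairs the libraries by replicate number. The other 7 genes, both ferritin chains among them, did not pass an adjusted p of 0.05 in either fit. Without regard to replicate number, 2 of the 10 genes had a P value under 0.05 (*TFRC* and *SLC40A1*, both higher), against 3.53% of all genes tested in either direction and 2.03% higher, and none passed an adjusted p of 0.05, which 1 gene (0.00483%) did in edgeR's quasi-likelihood test. The count of 0 was also 0 in limma-voom and was 1 (*TFRC*) in DESeq2. DMSO and S767 libraries that share a replicate number deviated together, so the number was also fitted as a block. With it, 5 of the 10 genes had a P value under 0.05, all higher with S767, against 16.8% of all genes in either direction and 9.38% higher. *TFRC*, *SLC40A1* and *ACO1* passed an adjusted p of 0.05, all 3 higher, against 3.23% of all genes in either direction and 2.16% higher. In *TFRC* and *STEAP3* all S767 libraries stood above all DMSO libraries, which held for 5.12% of all genes, and 9.21% did not overlap in either direction. The median log2 fold change was 0.04 over the 10 genes and -0.00024 over all genes tested, and 6 of the 10 lay above 0. Below, a gene is said to rise only where it passed an adjusted p of 0.05 in the fit with the block.

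**Figure D2:**
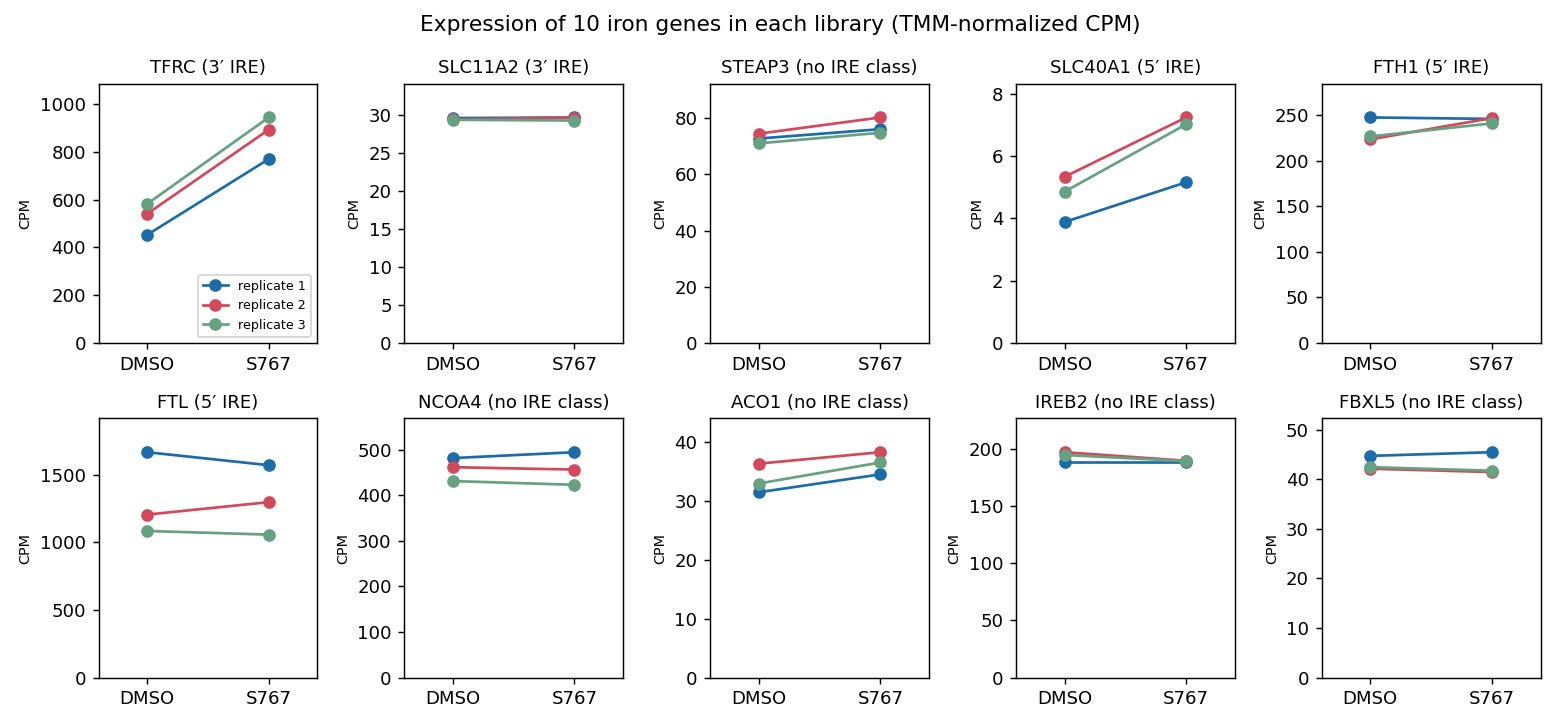
Expression of each gene in TMM-normalized CPM (vertical axes start at 0), with DMSO at the left and S767 at the right, and a line joining the 2 libraries of each replicate number. *TFRC* rises along all 3 lines, from 452.3 to 581.9 CPM with DMSO to 769.6 to 943.9 CPM with S767, *SLC40A1* is higher along all 3, and the *SLC11A2* lines are flat.

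*TFRC* (ENSG00000072274.13, chr3:196027183-196082189, minus strand) encodes the receptor that takes up transferrin-bound iron. It was at 452.3, 540.3 and 581.9 CPM with DMSO and at 769.6, 892.9 and 943.9 CPM with S767, in replicates 1, 2 and 3. The lowest S767 library stood above the highest DMSO library, and replicate 1 was the lowest within each treatment. Within replicate numbers, S767 exceeded DMSO by 1.70-, 1.65- and 1.62-fold. The log2 fold change was 0.73 (SE 0.10) without the block, with a 95% interval of 0.50 to 0.96 and an adjusted p of 0.377 in edgeR's quasi-likelihood test (Benjamini-Hochberg). With the block it was 0.73 (SE 0.02), with an interval of 0.68 to 0.78 and an adjusted p of 1.14e-08. *TFRC* had the lowest P value of all 20725 genes with the block and the third lowest without it. An exact two-sided permutation test of the 6 libraries gave p = 0.1, the smallest that 3 against 3 allow.

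The mean length of *TFRC* transcripts, which RSEM weights by the abundance of each isoform, also separated the treatments. It was 4628, 4516 and 4664 bases with DMSO and 4739, 4710 and 4775 bases with S767. All 3 S767 libraries were longer, a pattern found in 2.84% of all genes tested and in none of the other 9 iron genes. The ratio of mean TPM (1.58-fold) was lower than that of mean CPM (1.66-fold). TPM divides by this length, but how much of the gap came from it was not tested. Which isoforms differed was not analysed here.

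*SLC11A2* (ENSG00000110911.16, chr12:50979401-51028566, minus strand) encodes DMT1, the transporter that moves iron out of the endosome, and it is the other gene with a 3′ IRE. It measured 29.58, 29.40 and 29.35 CPM with DMSO and 29.66, 29.65 and 29.25 CPM with S767. The 6 values lay between 29.25 and 29.66 CPM, and the groups overlapped. The estimated change was 0.27% without the block, with a 95% interval from -6.08% to 7.04%. With the block it was 0.25%, with a 95% interval from -3.91% to 4.60% that lies wholly below the *TFRC* interval of 59.8% to 72.1%. *STEAP3* (ENSG00000115107.20, chr2:119223831-119265652, plus strand) encodes the reductase that prepares iron for this transport. It was at 72.7, 74.5 and 71.0 CPM with DMSO and at 76.1, 80.3 and 74.8 CPM with S767. The groups did not overlap, but the difference was small. The log2 fold change was 0.08 in both fits (SE 0.04 and adjusted p = 1.00 without the block, SE 0.02 and adjusted p = 0.0879 with it, in edgeR's quasi-likelihood test). Without replicate 1 it was 0.09 with the block, and the adjusted p was 0.0191. Without replicate 2 or replicate 3 the blocked adjusted p was 0.62 or 0.216, and *STEAP3* passed in 1 of 9 alternatives with the block.

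*SLC40A1* (ENSG00000138449.10, chr2:189560579-189583758, minus strand) encodes ferroportin, the only known exporter of iron from cells, and was the least expressed of the 10 genes. It was at 3.88, 5.34 and 4.86 CPM with DMSO and at 5.16, 7.24 and 7.02 CPM with S767, from at least 1229 fragments in each S767 library. S767 replicate 1 lay below DMSO replicate 2, so the groups overlapped, while S767 was higher within each replicate number by 1.33-, 1.36- and 1.45-fold. A higher value in all 3 replicate numbers was seen in 19.9% of all genes. The log2 fold change was 0.47 (SE 0.16, adjusted p = 1.00) without the block and 0.46 (SE 0.06, adjusted p = 0.00146) with it, in edgeR's quasi-likelihood test. Without replicate 2 the blocked adjusted p was 0.0739, and the call was lost.

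*FTH1* and *FTL*, whose products form the ferritin shell, did not pass an adjusted p of 0.05. *FTH1* (ENSG00000167996.16, chr11:61959718-61967660, minus strand) was at 247.7, 223.6 and 226.8 CPM with DMSO and at 246.1, 247.0 and 241.2 CPM with S767. The S767 libraries lay together near the highest DMSO library, replicate 1, which exceeded each of them. With the block the difference was 5.27% (95% interval 0.86% to 9.87%, adjusted p = 0.202 in edgeR's quasi-likelihood test). Without the block it was 5.19%, with a 95% interval from -2.18% to 13.1%. Without replicate 1 the blocked adjusted p was 0.000355, with a log2 fold change of 0.12. Without replicate 2 or replicate 3 it was 0.831 or 0.384, and *FTH1* passed in 1 of 9 alternatives with the block. *FTL* (ENSG00000087086.15, chr19:48965301-48966878, plus strand) was at 1666, 1205 and 1084 CPM with DMSO and at 1570, 1297 and 1057 CPM with S767. Replicate 1 was highest and replicate 3 lowest in both treatments, and the groups overlapped fully. The spread between replicates gave a 95% interval from -24.9% to 31.0% without the block. With the block the interval ran from -5.20% to 4.70% around -0.37%. Without DMSO replicate 1 the unblocked log2 fold change was 0.19 in place of -0.01.

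Both ferritin genes have processed copies elsewhere in the genome that can share reads. The 25 *FTH1* pseudogenes held counts equal to 0.619% to 0.781% of those of *FTH1*, and the 16 *FTL* pseudogenes 0.134% to 0.167% of those of *FTL*. Fragments that map to more than 1 place are not in these counts, so the shares do not measure how many reads were shared. *FTH1* overlaps *BEST1* on the opposite strand over 5798 bases. When strand was ignored *FTH1* kept 19.4% to 20.9% of its count, so its values rest on the strand-specific counts.

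*NCOA4* (ENSG00000266412.5, chr10:46005088-46030714, minus strand) binds ferritin and carries it to the lysosome, where its iron is released. It was at 481.5, 461.5 and 431.1 CPM with DMSO and at 494.4, 456.3 and 422.9 CPM with S767. Replicate 1 was again highest and replicate 3 lowest in both treatments. The blocked change was -0.14%, with a 95% interval from -3.67% to 3.53%, and without the block the interval ran from -9.68% to 10.6%.

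*ACO1* (ENSG00000122729.19, chr9:32384603-32454769, plus strand) encodes IRP1, which is a cytosolic aconitase when it holds an iron-sulfur cluster and binds IREs when it does not. It was at 31.5, 36.4 and 33.0 CPM with DMSO and at 34.5, 38.3 and 36.6 CPM with S767. The groups overlapped, and S767 was higher within each replicate number. Without the block the log2 fold change was 0.12 (SE 0.06), with a 95% interval from -0.03 to 0.27 and an adjusted p of 1.00 in edgeR's quasi-likelihood test. *ACO1* rose by a log2 fold change of 0.12 (SE 0.03) only in the fit with the block, and its adjusted p of 0.0412 in edgeR's quasi-likelihood test lay close to the threshold. Without replicate 2 or replicate 3 the blocked adjusted p was 0.326 or 0.164, and *ACO1* passed in 4 of 9 alternatives with the block.

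*IREB2* (ENSG00000136381.13, chr15:78437431-78501456, plus strand) encodes IRP2, the IRP that is controlled by degradation. It was at 188.2, 197.0 and 194.6 CPM with DMSO and at 188.2, 189.5 and 189.2 CPM with S767. The log2 ratio of S767 to DMSO was -0.00025, -0.06 and -0.04 within replicate numbers, a direction shared by all replicate numbers in 17.8% of all genes. The blocked change was -2.20% (95% interval -5.53% to 1.26%, adjusted p = 0.543 in edgeR's quasi-likelihood test), and the unblocked interval ran from -7.46% to 3.31%. *FBXL5* (ENSG00000118564.15, chr4:15604539-15681679, minus strand) encodes the iron-sensing subunit of the ubiquitin ligase that degrades IRP2. It was at 44.7, 42.1 and 42.4 CPM with DMSO and at 45.4, 41.4 and 41.7 CPM with S767. The groups overlapped, and the blocked change was -0.54% (95% interval -4.41% to 3.50%, or -8.22% to 7.86% without the block). These values are mRNA levels, and IRP activity and protein stability were not measured.

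**Figure D3:**
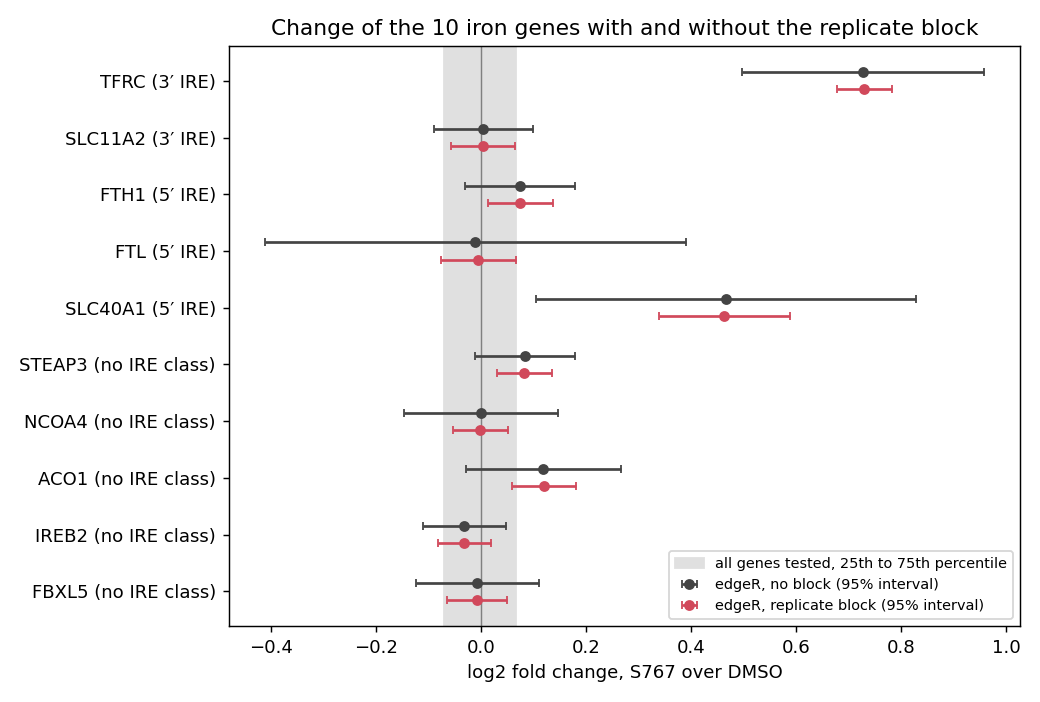
Log2 fold change of S767 over DMSO for each gene, grouped by IRE class, with 95% intervals from edgeR without the block (grey) and with the block (red). The band marks the middle 50% of all genes tested, from -0.07 to 0.07. *TFRC* (0.73) and *SLC40A1* (0.46 with the block) lie outside it with their whole intervals, one gene of each class, and the *FTL* interval narrows most with the block.

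To compare the IRE classes, each 3′ gene was divided by each 5′ gene within a library, which cancels library size. *TFRC*/*FTH1* (ratio of CPM) was 1.83, 2.42 and 2.57 with DMSO and 3.13, 3.62 and 3.91 with S767. *TFRC*/*SLC40A1* was 116.5, 101.3 and 119.8 with DMSO and 149.1, 123.3 and 134.4 with S767. In both ratios all S767 libraries stood above all DMSO libraries, by 0.66 and 0.27 on the log2 scale. *TFRC*/*FTL* was 0.271, 0.448 and 0.537 with DMSO and 0.490, 0.689 and 0.893 with S767. These groups overlapped although the log2 difference was 0.74. Between replicates, *FTL* spanned 0.62 with DMSO and 0.57 with S767 in log2 CPM. *TFRC* spanned 0.36 with DMSO and 0.29 with S767, and the part of each gene in the overlap was not tested.

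The *SLC11A2* ratios did not follow those of *TFRC*. *SLC11A2*/*SLC40A1* was 7.62, 5.51 and 6.04 with DMSO and 5.75, 4.09 and 4.17 with S767, lower within each replicate number, with a log2 difference of -0.46. The difference was -0.07 for *SLC11A2*/*FTH1* and 0.01 for *SLC11A2*/*FTL*, and in all 3 *SLC11A2* ratios the groups overlapped. Two-sided exact permutation tests gave p = 0.1 for *TFRC*/*FTH1* and *TFRC*/*SLC40A1*, p = 0.2 for *TFRC*/*FTL* and *SLC11A2*/*SLC40A1*, p = 0.4 for *SLC11A2*/*FTH1* and p = 1.0 for *SLC11A2*/*FTL*. Adjusted over the 6 ratios, no exact p was below 0.3, and the design allows none below 0.1 before adjustment. The mean log2 CPM of the 3′ genes minus that of the 5′ genes was -0.02, 0.16 and 0.30 with DMSO and 0.26, 0.30 and 0.45 with S767, a difference of 0.19 that was positive in each replicate number. Without DMSO replicate 1 the difference was 0.0994. With 2 genes in one class and 3 in the other this mean was not tested, and of its 3′ genes only *TFRC* rose.

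**Figure D4:**
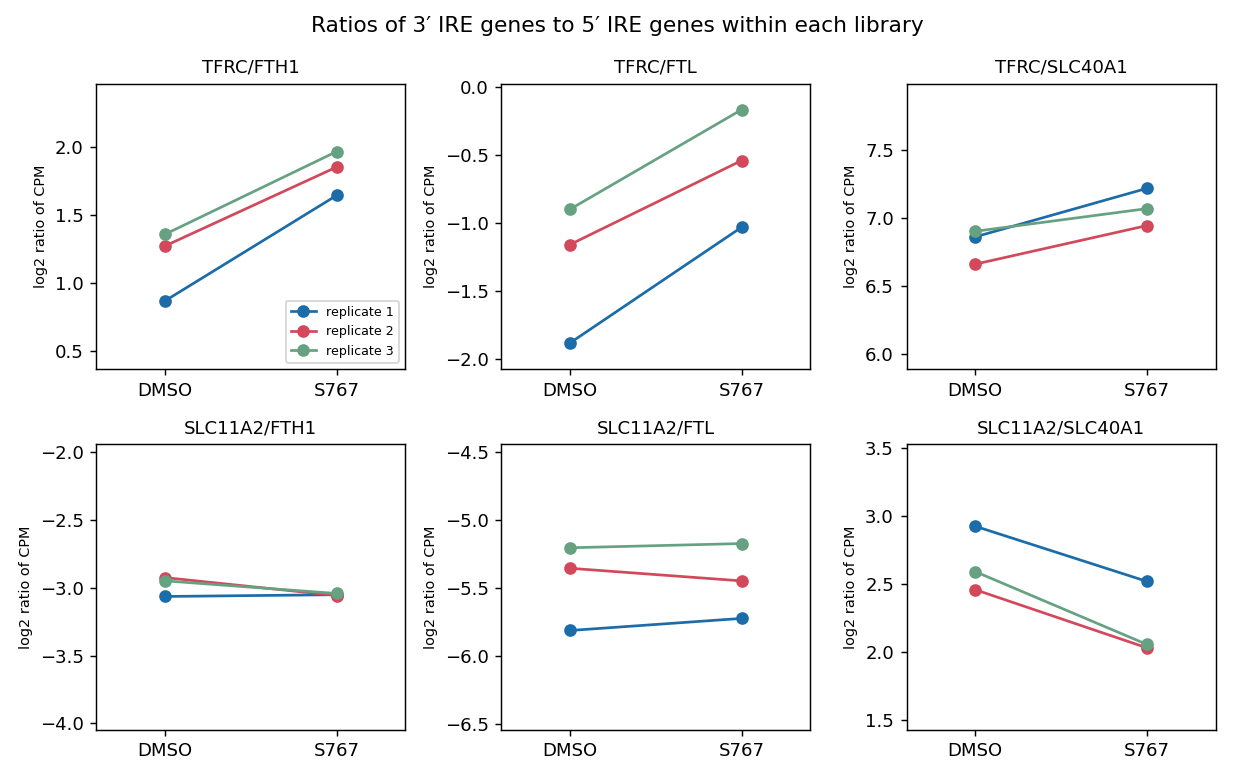
Ratio of each 3′ IRE gene to each 5′ IRE gene in each library (log2 ratio of CPM, all panels span the same log2 range), with a line joining the libraries of each replicate number. The *TFRC* ratios are higher with S767 along all lines, whereas *SLC11A2*/*SLC40A1* is lower along all lines and the group means of the other *SLC11A2* ratios differ by -0.07 (*FTH1*) and 0.01 (*FTL*).

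Of 4 other mRNAs known to carry an IRE, all but *ALAS2* were tested. None passed an adjusted p of 0.05 with the block in edgeR, limma-voom or DESeq2. Of those tested, 2, 2 and 0 had a P value under 0.05, against 16.8%, 16.5% and 10.2% of all genes tested. *ALAS2*, the erythroid enzyme of heme synthesis with a 5′ IRE, had no count in any library. *EPAS1*, the hypoxia factor HIF-2α with a 5′ IRE, was at 0.184 to 0.227 CPM. Of the genes with a reported 3′ IRE, *CDC42BPA*, a kinase, had a log2 fold change of 0.06 (adjusted p = 0.229) and *CDC14A*, a phosphatase, one of -0.08 (adjusted p = 0.262), both with the block in edgeR's quasi-likelihood test. The search found full matches in *ALAS2* and *CDC14A* and none in *EPAS1* or *CDC42BPA*.

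A further 32 genes of iron handling were counted, of which 21 passed the limit on low counts. They cover uptake (7 of 11 tested), export and its hormonal control (0 of 6), chaperones and ferritin turnover (3 of 4), endosomal trafficking (3 of 3), the FBXL5 complex (4 of 4) and decay of the *TFRC* mRNA (4 of 4). None passed an adjusted p of 0.05 with the block in edgeR, limma-voom or DESeq2, and 2, 3 and 1 had a P value under 0.05, against 16.8%, 16.5% and 10.2% of all genes tested. The 2 genes in edgeR are given here by their values. *RC3H1*, which encodes Roquin-1, an RNA-binding protein that promotes mRNA decay, was at 71.0 ± 0.95 CPM with DMSO and 66.6 ± 2.3 CPM with S767 (SD, n = 3 each), without overlap. Its log2 fold change was -0.09, with an adjusted p of 0.0636 with the block and 1.00 without it in edgeR's quasi-likelihood test. The other was *ZFP36*, which encodes tristetraprolin, named after its values were seen, with a log2 fold change of -0.07 and an adjusted p of 0.281 with the block.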

How the data were processed

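RNA was sequenced from OCI-AML5 cells exposed to DMSO or S767 (3 libraries each), with treatment and replicate number taken from the labels. According to the methods, the authors used Trimmomatic for trimming, STAR for alignment and RSEM for quantification. The submitters' processing notes name STAR 2.7.1a, RSEM 1.2.28 and GRCh38, and the annotation release is not given in the sources used here. The authors deposited raw counts of fragments per gene, for each strand and ignoring strand, and RSEM tables with expected counts, TPM and abundance-weighted lengths, which were used as the mean transcript lengths. Reverse-strand counts were used, since forward counts were 6.44% to 6.58% of forward and reverse counts together. The 4 summary lines of each count table, 20.3% of fragments, were left out.

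Counts were normalized with TMM, filtered with filterByExpr (minimum count 10) and tested with edgeR 4.0.16 in R 4.3.3 (quasi-likelihood, Benjamini-Hochberg over all 20725 genes). TPM levels are RSEM's. Single ratios were compared with exact permutation tests in SciPy 1.17.1. The fits were tested on simulated data. At this depth the spread between samples, not counting error, limits most comparisons, and no library repeated another (chi-square per gene of 15.2 or more).

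The replicate numbers pair the libraries. Over 6191 genes, deviations from the group means correlated at 0.779, 0.872 and 0.754 where the number was shared. The pairing comes from these values, as neither the labels nor the methods say what the numbers share. The main design has no block, and the blocked fit is printed beside it.

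Symbols were found for 60295 of 60609 identifiers, and positions are those of GENCODE 29, which lists 58489 of them. The genes and lists were chosen with earlier results of these data known. The 10 genes and 5 other IRE carriers were to be named always, of which 1 is not reported here, and other iron genes only with P under 0.05 without the block or an adjusted p under 0.05 with it. Alternatives were DESeq2 1.42.0, limma-voom (limma 3.58.1), library size alone or RLE factors, other limits on low counts, the block alone and in combination, RSEM expected counts rounded to whole numbers, counts that ignore strand, limma on log2(TPM + 1) and log2(TPM + 0.1), and each library or pair left out.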

Additional observations from a re-analysis of the deposited data

How the results depend on the processing

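Of 25 alternatives, 9 held the replicate block. *TFRC* kept its direction in all 25 (log2 fold change 0.63 to 0.81) and passed an adjusted p of 0.05 in 9 of 9 with the block and in 2 of 16 without it. *SLC40A1* kept its direction in all 25 (0.31 to 0.61) and passed in 8 of 9 and 0 of 16. The difference between the IRE classes was 0.0994 (without DMSO replicate 1) to 0.267 in all 25.

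The main fit called 1 gene at an adjusted p of 0.05. The count was 27 with DESeq2, 9 without a limit on low counts, 670 with the block, 609 with the block in limma-voom, 645 with the block in DESeq2, 617 with the block and library size alone, 394 with the block on RSEM counts, 643 with the block ignoring strand, and 24 to 2034 with the block and a pair left out (24 without replicate 2, 636 without replicate 3, 2034 without replicate 1). It was 1 to 2 with a library left out, and 0 on log2(TPM + 1) and log2(TPM + 0.1) with limma, where 1062 and 1077 genes had P under 0.05.

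Of the 10 iron genes, 2 had P under 0.05. The number was 5 with the block, alone or with limma-voom, DESeq2, library size or RSEM counts, 4 with the block ignoring strand, 3 to 6 with the block and a pair left out, 1 on both TPM scales, and 1 to 3 with a library left out (1 without S767 replicate 2 or 3). At an adjusted p the number was 0 without the block, but 1 (*TFRC*) with DESeq2 or without a limit on low counts. With the block it was 3, also in limma-voom and ignoring strand, 2 in DESeq2, with library size or on RSEM counts, and 1 to 5 with a pair left out.

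*SLC11A2* turned to -0.0715 on log2(TPM + 1) and -0.0761 on log2(TPM + 0.1), and *FTL* to 0.193 without DMSO replicate 1 (-0.163 to 0.193 with each library left out), none past a threshold. *SLC11A2* (22 above 0, 3 below), *FTL* (4 and 21), *NCOA4* (10 and 15) and *FBXL5* (3 and 22) had no stable sign. The cause of these shifts was not tested. With 3 libraries a group, an exact test cannot go below 0.1.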
